A study of Homo sapiens with 12 samples.

Results

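The enzymes that add methyl groups to lysines of histones, and those that remove them, were followed in MIA PaCa-2 cells, an established human pancreatic carcinoma line, after knockdown of the Musashi RNA-binding proteins. Genes were taken by symbol: the KDM1 to KDM8, KMT2, KMT5, SETD and SETDB, EHMT, EZH, SUV39H, SUV420H, PRDM, NSD1, WHSC1, DOT1L and SMYD names, with pseudogenes and antisense entries left out. This gave 68 of the 24528 genes in the table, of which 60 passed the low-count filter and were tested. The table uses older symbols, so WHSC1 is NSD2, WHSC1L1 is NSD3, and SETD8, SUV420H1 and SUV420H2 are KMT5A, KMT5B and KMT5C.

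The 4 groups had 3 libraries each. Msi1 knockdown cells carried a lentiviral short hairpin RNA (shRNA) against Musashi-1 with a GFP tag, Msi2 knockdown cells one against Musashi-2 with a Tomato Red tag, and double-knockdown cells were sorted as positive for both tags. Control cells received a scrambled shRNA, and the sources used here do not give their tag or sorting gate. All were infected for 72 hours and sorted, and 200 ng of total RNA went into each library. The labels do not say whether replicates were separate cultures, and the p-values therefore cover no more than the spread among these libraries, which may be technical. Because the RNA is from sorted bulk cells, fewer expressing cells and less RNA per cell cannot be told apart.

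Lysine methylation on histones is read by other proteins, and its effect depends on the residue. Methylation of H3K4 marks promoters and enhancers, and that of H3K36 and H3K79 lies over transcribed genes. H3K9 and H3K27 methylation is tied to silent chromatin, and H4K20 methylation to chromosome compaction and replication. SET-domain proteins and DOT1L write these marks with S-adenosylmethionine as methyl donor. The LSD enzymes remove them with a flavin cofactor, and the JmjC enzymes with iron and 2-oxoglutarate. Musashi proteins bind UAG-containing sites, mainly in 3′ untranslated regions (3′UTRs), and act on the stability and translation of those messages.

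Library totals ran from 26759360 to 38922394 estimated counts in Msi1 knockdown cells, 39692117 to 53014534 in Msi2 knockdown cells, 39853171 to 56122207 in double-knockdown cells and 10948191 to 35043671 in control. The targeted messages were lower in the libraries labelled for them. MSI1 averaged 1.84 ± 0.19 CPM (the usual per-million unit, with library totals scaled by TMM; mean ± SD, n = 3) in Msi1 knockdown cells and 1.71 ± 0.28 CPM in double-knockdown cells, against 4.53 ± 0.40 CPM in control. MSI2 averaged 14.97 ± 2.36 CPM in Msi2 knockdown cells and 11.76 ± 0.62 CPM in double-knockdown cells, against 82.7 ± 3.1 CPM in control. MSI2 also stood at 54.0 ± 2.3 CPM in Msi1 knockdown cells, below control, and MSI1 at 6.14 ± 0.82 CPM in Msi2 knockdown cells, above it. Libraries of the same group also differed from each other along 1 main direction, which made up 54.1% of the variance within groups. Scores along it, called the library trend here, were taken from deviations from the mean of all 12 libraries, so they also hold group differences. They lay between -1.54 and -1.06 in double-knockdown cells and between -0.39 and 1.38 in the other 9 libraries. Relative to short transcripts, long ones were lower in the double-knockdown libraries than in the others, and the enzymes are long: the median longest transcript was 6.12 kb over the 60 tested and 3.53 kb over all 15021 genes tested. The trend and transcript length were therefore each put into a further fit, and for the enzymes named below their values are given where they ended a call against control or moved a called change by more than 1.5 times.

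The cells had the keratins of the line but few other markers of its tissue. KRT8 and KRT18 ran from 1080 to 1711 CPM, CDH1 reached at most 1.01 CPM and EPCAM at most 0.364 CPM. Of 7 pancreatic acinar and ductal markers SOX9 alone was above 1 CPM. The 6 fibroblast markers summed to 549 to 887 CPM, nearly all from COL1A2 and COL3A1, with DCN at most 1.71 CPM and PDGFRA at most 0.399 CPM. The 4 endothelial markers summed to 27.5 to 34.5 CPM in Msi1 knockdown cells, 13.1 to 13.6 CPM in Msi2 knockdown cells and 20.4 to 22.9 CPM in double-knockdown cells, against 7.23 to 8.36 CPM in control. Nearly all of this was CDH5, and PECAM1, VWF and KDR reached at most 1.01, 0.410 and 0.384 CPM. The 5 blood markers summed to at most 3.27 CPM and the 3 neuronal genes to at most 0.18 CPM.

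No enzyme of the 60 differed from control by a log2 change of 1 or more in size in any knockdown. In Msi1 knockdown cells 8 were higher and 17 lower, against 18.5% and 20.9% of all genes tested (edgeR, Benjamini-Hochberg adjusted p below 0.05). That is 41.7% of the enzymes and 39.3% of all genes, shares that are near each other. In Msi2 knockdown cells 12 were higher and 3 lower, against 16.7% and 13.6% of all genes, so 25.0% of the enzymes and 30.3% of all genes were called. With the replicate number as a block in a model of these 2 groups alone, 22 were higher and 7 lower, against 21.9% and 20.1% of all genes in that model. This block was added after seeing the data, and the labels do not say that equal numbers mark a shared batch. It was picked because same-numbered libraries of these 2 groups were seen to deviate together. Its added calls, here and below, are therefore no independent support for a change. Its model also leaves fewer residual degrees of freedom than the 8 of the model of all 12 libraries. A block over all 12 libraries added 3 calls. The 14 enzymes added in the model of 2 groups were KMT2A, KMT2C, KMT2E, SETD1A, NSD1, SUV420H1, SUV420H2, KDM5C, PRDM10 and PRDM15, which were higher, and EZH2, SETD2, SUV39H2 and KDM4C, which were lower. In double-knockdown cells 10 were higher and 21 lower, against 26.6% and 25.3% of all genes, again close to the background in total at 51.7% of the enzymes and 51.9% of all genes. Correction for transcript length turned this split round, to 17 higher and 12 lower, against 29.7% and 20.9% of all genes in that fit. Over the Msi1, Msi2 and double knockdown, the length correction added 2, 3 and 7 calls and ended 2, 3 and 9, and the trend covariate added 9, 11 and 3 and ended 3, 0 and 10. Over all genes the main fit called 5907, 4545 and 7796. The length correction called 6006, 4525 and 7544, and the trend covariate 6430, 6391 and 5830. The median log2 change of the 60 enzymes was -0.07, 0.08 and -0.05 after Msi1, Msi2 and double knockdown, and that of all genes was -0.002, -0.002 and -0.015. Without control replicate 1 the higher calls in Msi1 knockdown cells numbered 5, and those in Msi2 knockdown cells numbered 7 without control replicate 1 or 2 and 5 without Msi2 knockdown replicate 1. The lower calls in Msi2 knockdown cells numbered 5 without Msi2 knockdown replicate 2. Shares of all genes are not given for fits with a library left out. With all libraries thinned to equal depth, 8, 9 and 8 calls were lost after Msi1, Msi2 and double knockdown. For enzymes named below these losses are given for the Msi1 knockdown and DOT1L only, so other calls may also depend on depth.

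All 3 knockdowns were compared with the same control libraries, so their changes are not independent. Of the 60 enzymes, 20 were called in none of the 3 comparisons, 17 in 1, 15 in 2 and 8 in all 3. Over all genes the shares were 27.1%, 36.9%, 23.4% and 12.6%. Those called higher in all 3 were KDM6B, DOT1L, SUV39H1 and SETD8, and KDM1B and KDM4A were among those called lower in all 3. SETD3 was called in all 3 with different signs.

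**Figure D1:**
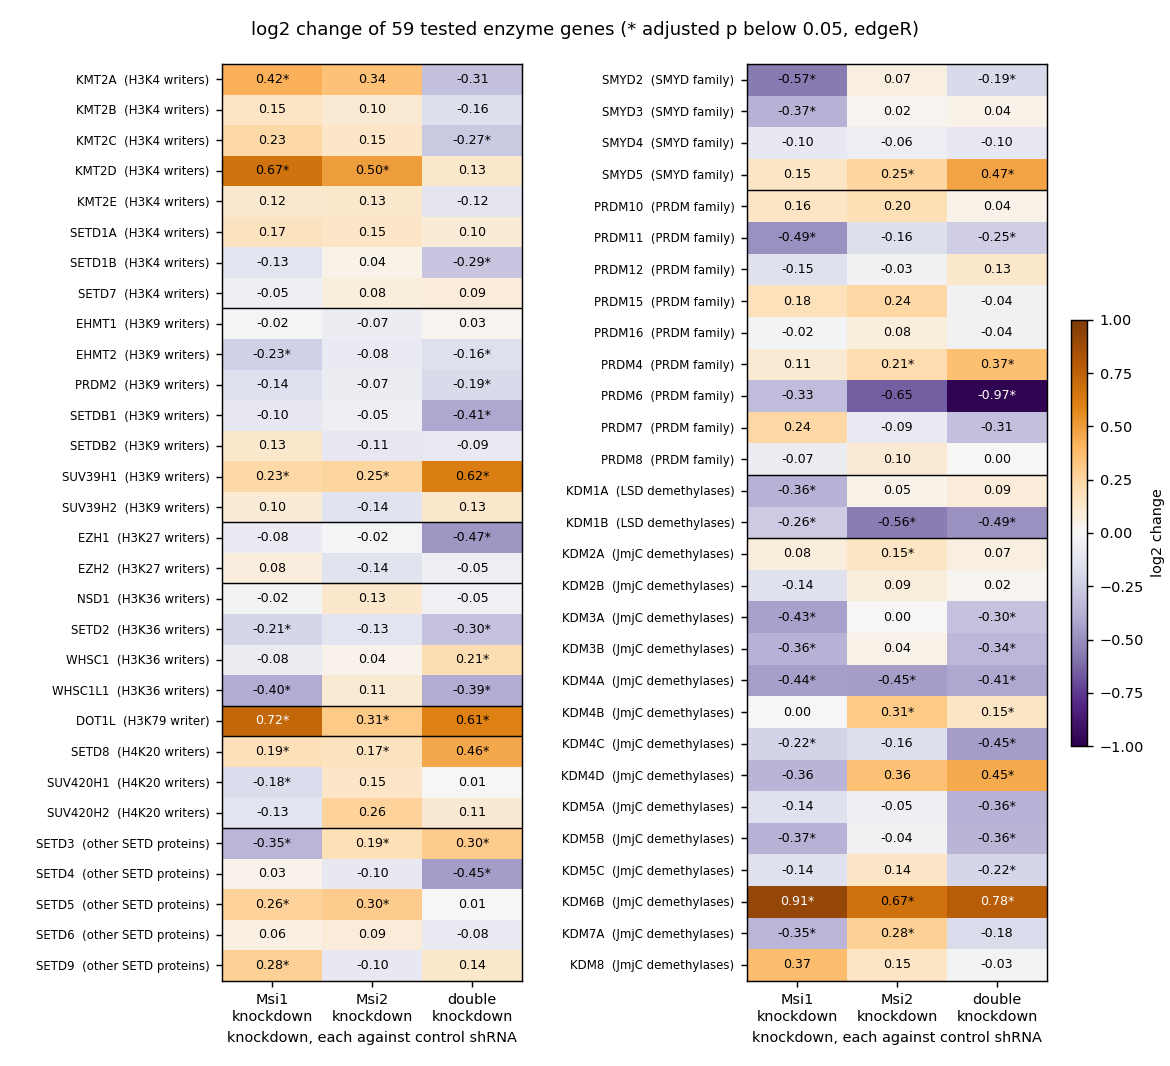
Log2 change of 59 of the 60 tested enzyme genes (rows, grouped by the mark written or the enzyme family) after Msi1, Msi2 and double knockdown (columns), each against control; orange is higher, purple lower, and an asterisk marks an edgeR adjusted p below 0.05. KDM6B and DOT1L are orange in every column and KDM1B and KDM4A purple in every column, whereas KMT2A, KMT2B, KMT2C and KMT2E are orange in the single and purple in the double knockdown.

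Per transcript length, control levels of the 60 spanned 41.7 to 0.075 CPM per kb. KDM1A, the LSD1 demethylase of H3K4, was highest at 41.7 CPM per kb. WHSC1, an H3K36 writer, and SETD3, which methylates actin, followed at 26.8 and 26.6 CPM per kb, closer to each other than the spread of either over the 3 control libraries. EZH2 stood at 19.9 CPM per kb, EZH1 at 14.9, KMT2A at 10.3, DOT1L at 4.93, KMT2D at 3.33 and KDM6B at 3.27 CPM per kb. The lowest 3 were PRDM12 at 0.246, PRDM7 at 0.178 and PRDM6 at 0.075 CPM per kb. PRDM7 and KDM4D have near-identical partners, PRDM9 and KDM4E, and KMT2C has related copies elsewhere in the genome, so their values depend on how shared reads were assigned.

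**Figure D2:**
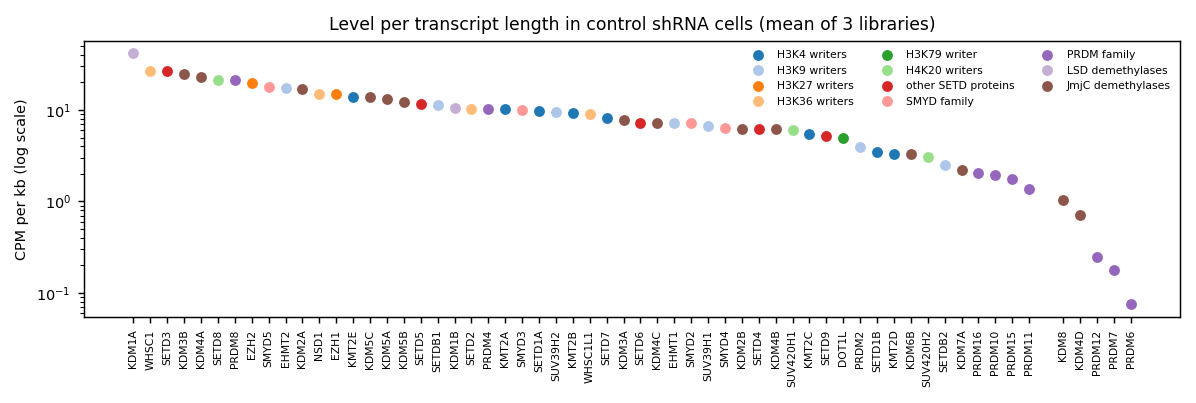
Level of 59 of the 60 tested enzyme genes in control shRNA cells, as the mean of 3 libraries in CPM per kb of the longest transcript (log axis), ordered from high to low and coloured by class. KDM1A stands alone at the top with 41.7 CPM per kb, and PRDM12, PRDM7 and PRDM6 are the lowest, at 0.246 to 0.075 CPM per kb.

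The remaining 8 genes had too few counts to test. They were KDM4E, KDM5D, KDM6A, PRDM1, PRDM9, PRDM13, PRDM14 and SMYD1. KDM6A (UTX), the broadly expressed H3K27 demethylase, had 0 to 6 counts per library and 17 in all 12 libraries. Of KDM6A and KDM6B, only KDM6B was detected at a testable level.

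Promoter sequence is shown for KDM6B, which was higher in every knockdown, and for the demethylases KDM1B and KDM4A, which were lower in every knockdown. Each run is the 250 bases before the RefSeq start of the gene on GRCh38.p14, plus strand, and capitals mark every match to the GC box GGGCGG or the CCAAT box CCAAT on either strand. KDM6B lies at chr17:7833967-7834216, KDM1B at chr6:18155172-18155421 and KDM4A at chr1:43649899-43650148.
KDM6B: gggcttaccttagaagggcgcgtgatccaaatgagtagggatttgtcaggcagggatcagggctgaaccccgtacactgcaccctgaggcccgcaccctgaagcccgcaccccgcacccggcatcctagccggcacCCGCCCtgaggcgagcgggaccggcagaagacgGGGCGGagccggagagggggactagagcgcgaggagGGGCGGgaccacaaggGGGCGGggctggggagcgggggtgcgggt
KDM1B: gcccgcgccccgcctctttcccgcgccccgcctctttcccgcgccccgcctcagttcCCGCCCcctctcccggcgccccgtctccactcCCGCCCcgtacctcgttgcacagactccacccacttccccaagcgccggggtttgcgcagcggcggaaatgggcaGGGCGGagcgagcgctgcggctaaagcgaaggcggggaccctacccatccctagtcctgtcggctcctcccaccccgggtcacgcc
KDM4A: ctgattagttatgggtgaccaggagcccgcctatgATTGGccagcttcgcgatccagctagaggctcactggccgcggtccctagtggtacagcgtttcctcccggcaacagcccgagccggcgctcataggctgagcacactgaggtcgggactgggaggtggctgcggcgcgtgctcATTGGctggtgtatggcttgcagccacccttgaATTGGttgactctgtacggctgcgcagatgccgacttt

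The KDM6B promoter held 4 GC boxes and no CCAAT box, that of KDM1B 3 GC boxes and no CCAAT box, and that of KDM4A 3 CCAAT boxes and no GC box. Of the 54 tested enzymes with a promoter in the table, 40 (74.1%) held a GC box, against 42.3% of all 27305 promoters, and their median GC content was 67.0% against 58.0%. A CCAAT box was present in 19 of the 54 (35.2%) and in 33.0% of all promoters. The E-box CACGTG was present in 9 (16.7%) against 6.5%, the TATA box TATAAA in 1 (1.9%) against 11.1%, and the AP-1 site TGANTCA in 1 (1.9%) against 6.6%. The 54 enzymes had passed the low-count filter, whereas the 27305 promoters were not filtered by expression, so these shares are of unlike sets. These matches describe the letters in the windows. They are not evidence of binding.

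DOT1L, the H3K79 methyltransferase and the one writer of the set without a SET domain, was higher in every knockdown. It stood at 59.2, 61.2 and 61.6 CPM in Msi1 knockdown cells, 48.1, 44.9 and 43.3 CPM in Msi2 knockdown cells and 58.0, 55.2 and 54.3 CPM in double-knockdown cells, against 36.2, 37.6 and 36.1 CPM in control. Each knockdown library lay above each control library. The log2 changes were 0.72 ± 0.06, 0.31 ± 0.06 and 0.61 ± 0.06, with edgeR adjusted p of 2e-08, 0.00068 and 1.7e-07. At equal depth the Msi2 change was 0.30 and just missed the threshold (adjusted p = 0.051). The Msi2 change was smaller than the Msi1 change (log2 -0.42 ± 0.06 between them, edgeR adjusted p = 1.1e-05) and than the double-knockdown change (0.30 ± 0.06 between double and Msi2 knockdown, adjusted p = 0.0004).

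Among the 7 H3K9 writers, SUV39H1, which trimethylates H3K9 in constitutive heterochromatin, had the largest change, in the double knockdown. It stood at 33.0, 29.5 and 28.4 CPM in double-knockdown cells, against 19.3, 18.6 and 22.02 CPM in control, with no overlap. In Msi1 knockdown cells it stood at 24.2, 21.98 and 23.3 CPM, where the lowest library lay just under the highest control, and in Msi2 knockdown cells at 24.3, 22.1 and 24.2 CPM. The log2 change in double-knockdown cells was 0.62 ± 0.08 (edgeR adjusted p = 3e-06). Those in the Msi1 and Msi2 knockdown were 0.23 ± 0.08 and 0.25 ± 0.08 (adjusted p = 0.028 and 0.021). Each of these single-knockdown calls was lost without control replicate 1 or 2, or without replicate 1 or 3 of the knockdown itself, and the Msi1 call also with the length correction (0.21, adjusted p = 0.055). The Msi1 call was lost at equal depth too (0.21, edgeR adjusted p = 0.32). The double knockdown exceeded the Msi1 knockdown by 0.39 ± 0.07 and the Msi2 knockdown by 0.37 ± 0.07 on the log2 scale (edgeR adjusted p = 0.0003 and 0.00054), and neither difference was called with the library trend as covariate (0.14 and 0.18, adjusted p = 0.58 and 0.16).

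The other H3K9 writers did not follow SUV39H1. SETDB1, which acts with TRIM28 on repeats, fell in double-knockdown cells (log2 -0.41 ± 0.07, edgeR adjusted p = 0.00012) and had changes of -0.10 and -0.05 in the Msi1 and Msi2 knockdown. With the trend covariate its double-knockdown change was -0.22, still called, and its Msi1 change -0.23 was called too (edgeR adjusted p = 0.011 and 0.0017). EHMT2 (G9a), the main H3K9 dimethylase of euchromatin, fell in Msi1 knockdown cells (-0.23 ± 0.06) and in double-knockdown cells (-0.16 ± 0.06), where the call was lost without control replicate 1 or 2 or double-knockdown replicate 2 or 3, with the length correction (-0.09) and with the trend covariate (-0.13). Its partner EHMT1 (GLP) was not called, with changes from -0.07 to 0.03. SUV39H2, SETDB2 and PRDM2 had changes from -0.19 to 0.13, and of these only PRDM2 in double-knockdown cells was called, and not without control replicate 2 or double-knockdown replicate 1, with the length correction (-0.02) or with the trend covariate (-0.06). The Msi2 change of SUV39H2 was called with the replicate block (-0.15, edgeR adjusted p = 0.047).

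KMT2A, KMT2C and KMT2D, which encode large H3K4 methyltransferases of the MLL family, were higher in each single knockdown than in the double knockdown. KMT2D (MLL4), which monomethylates H3K4 at enhancers, stood at 87.7, 112 and 109 CPM in Msi1 knockdown cells, 98.0, 101 and 74.7 CPM in Msi2 knockdown cells and 64.6, 72.9 and 75.6 CPM in double-knockdown cells, against 63.0, 68.0 and 62.8 CPM in control. The libraries of both single knockdowns lay above control, and those of the double knockdown overlapped it. Log2 changes were 0.67 ± 0.11, 0.50 ± 0.11 and 0.13 ± 0.11, with edgeR adjusted p of 0.00016, 0.0027 and 0.33.

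KMT2A (MLL1), which acts at promoters of developmental genes and is rearranged in leukaemia, stood at 179, 256 and 253 CPM in Msi1 knockdown cells, 216, 249 and 186 CPM in Msi2 knockdown cells and 121, 143 and 151 CPM in double-knockdown cells, against 166, 189 and 157 CPM in control. The double-knockdown libraries lay below every control library, and each single knockdown overlapped control. Its log2 changes were 0.42 ± 0.14, 0.34 ± 0.14 and -0.31 ± 0.14, with edgeR adjusted p of 0.032, 0.087 and 0.09. The Msi1 call was lost without control replicate 1 or 3 or without Msi1 knockdown replicate 2 or 3. The Msi2 change was called with the replicate block in the 2 groups alone (0.34, edgeR adjusted p = 9e-06), a block picked after seeing the data. KMT2C (MLL3), the close relative of KMT2D, had changes of 0.23 ± 0.09, 0.15 ± 0.09 and -0.27 ± 0.09, and only the last was called (edgeR adjusted p = 0.023), which needed both control replicate 1 and double-knockdown replicate 1. The Msi1 change of KMT2C lay near the threshold (edgeR adjusted p = 0.055). It was called in the compared groups alone (0.245, edgeR adjusted p = 0.026) and by DESeq2 (0.243, adjusted p = 0.038). The length correction and the trend covariate did not call it. With the replicate block the Msi2 change of KMT2C was called (0.15, edgeR adjusted p = 0.02).

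Levels of KMT2A and KMT2D moved with the library trend within each group. In Msi1 knockdown cells the library with a trend score of 0.09 had 179 CPM of KMT2A, and those with scores of 1.37 and 1.38 had 256 and 253 CPM. With the trend as a covariate, the double-knockdown change of KMT2D was 0.48 and was called (edgeR adjusted p = 6e-06), as it was with the length correction (0.39, adjusted p = 8.6e-05). The same fits left KMT2C at -0.02 and -0.03 in double-knockdown cells, no longer called, and KMT2A at 0.11 in Msi1 knockdown cells with the trend, no longer called. The single-knockdown changes of KMT2D kept their calls in both fits, at 0.44 and 0.58 in Msi1 knockdown cells and 0.42 and 0.44 in Msi2 knockdown cells.

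**Figure D3:**
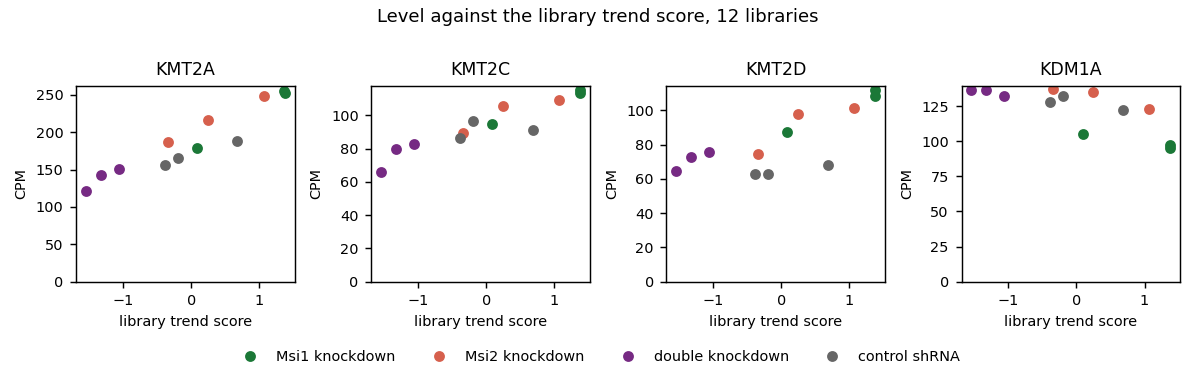
Level (CPM) of KMT2A, KMT2C, KMT2D and KDM1A in each of the 12 libraries against the library trend score, coloured by group. KMT2A and KMT2D are higher where the score is higher within each group, apart from the Msi1 libraries of near-equal score, and the double-knockdown libraries sit at scores of -1.54 to -1.06; KDM1A is lowest in the 3 Msi1 knockdown libraries, at 95.2 to 105 CPM.

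The 5 other genes grouped here with the H3K4 writers moved little. SETD1B was called lower in double-knockdown cells (-0.29 ± 0.08, edgeR adjusted p = 0.0043), which was no longer called with the length correction (-0.12, adjusted p = 0.18) or the trend covariate (-0.22, adjusted p = 0.057). KMT2B, KMT2E, SETD1A and SETD7 had changes from -0.16 to 0.17, none called. With the replicate block KMT2E and SETD1A were called in Msi2 knockdown cells (0.13 and 0.15, edgeR adjusted p = 0.026 and 0.021). In double-knockdown cells SETD1A and SETD7 were called after the length correction (0.23 and 0.24, edgeR adjusted p = 0.0061 and 0.012), and SETD1A with the trend covariate as well (0.22, adjusted p = 0.018).

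Of the H3K27 writers, the alternative catalytic subunits of Polycomb repressive complex 2, EZH1 fell in double-knockdown cells and EZH2 was not called. EZH1 stood at 49.2, 50.4 and 49.8 CPM in double-knockdown cells, against 70.4, 72.1 and 64.0 CPM in control. All 3 double-knockdown libraries lay below control, with a log2 change of -0.47 ± 0.07 (edgeR adjusted p = 3.4e-05). With the trend covariate this was -0.29, still called, and the Msi1 change was called at -0.21 (edgeR adjusted p = 0.0012 and 0.0041). Its levels of 62.5, 67.5 and 66.1 CPM in Msi1 knockdown cells and 70.1, 75.3 and 59.7 CPM in Msi2 knockdown cells overlapped control.

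EZH2, the subunit used in dividing cells, stood at 75.6, 79.1 and 75.1 CPM in Msi1 knockdown cells, 65.9, 69.4 and 62.9 CPM in Msi2 knockdown cells and 70.3, 72.4 and 67.3 CPM in double-knockdown cells, against 72.6, 73.9 and 71.2 CPM in control. Its log2 changes against control were 0.08 ± 0.06, -0.14 ± 0.06 and -0.05 ± 0.06 (edgeR adjusted p = 0.31, 0.085 and 0.46). The Msi1 libraries all lay above control and the Msi2 libraries all below it, and the Msi2 change was called with the replicate block in the 2 groups alone (adjusted p = 0.02) and by DESeq2 (0.048). EZH2 was lower in Msi2 knockdown cells than in Msi1 knockdown cells (log2 -0.21 ± 0.06, edgeR adjusted p = 0.0055).

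SETD2, the enzyme that trimethylates H3K36 along transcribed genes, stood at 71.2, 72.4 and 74.6 CPM in Msi1 knockdown cells, 82.9, 75.9 and 72.9 CPM in Msi2 knockdown cells and 65.6, 68.6 and 70.6 CPM in double-knockdown cells, against 86.4, 82.1 and 84.4 CPM in control. The Msi1 and double knockdown lay below control, and the Msi2 knockdown overlapped it. Log2 changes were -0.21 ± 0.06, -0.13 ± 0.06 and -0.30 ± 0.06, with edgeR adjusted p of 0.0088, 0.12 and 0.00035. Leaving out control replicate 1 removed the Msi1 call (adjusted p = 0.058), and the length correction the double-knockdown call (-0.14, adjusted p = 0.066), and the replicate block called the Msi2 change (-0.13, adjusted p = 0.031). Among the H3K36 dimethylases, WHSC1L1 (NSD3) fell in Msi1 knockdown cells and the double knockdown (-0.40 and -0.39, each ± 0.06, edgeR adjusted p = 6.7e-05 and 5.2e-05) and had a change of 0.11 in Msi2 knockdown cells. Its double-knockdown change was -0.19 with the length correction and -0.26 with the trend covariate, called in both. WHSC1 (NSD2) rose in double-knockdown cells (0.21 ± 0.06, edgeR adjusted p = 0.0046), with 0.38 after the length correction. NSD1 was not called. The replicate block called it higher in Msi2 knockdown cells (0.12, edgeR adjusted p = 0.033), and the length correction in double-knockdown cells, where its change was 0.17 in place of -0.05 (edgeR adjusted p = 0.042).

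SETD8, the H4K20 monomethylase needed in S phase and mitosis, was also higher in every knockdown, with smaller changes in the single ones. It stood at 93.4, 95.1 and 88.3 CPM in double-knockdown cells, against 65.9, 68.1 and 67.7 CPM in control, a log2 change of 0.46 ± 0.06 (edgeR adjusted p = 1.9e-06). Its means were 76.6 ± 1.8 CPM in Msi1 knockdown cells and 75.6 ± 2.0 CPM in Msi2 knockdown cells, against 67.3 ± 1.2 CPM in control, with no overlap and changes of 0.19 ± 0.06 and 0.17 ± 0.06 (edgeR adjusted p = 0.012 and 0.027). Leaving out control replicate 1 removed the Msi1 call (adjusted p = 0.058), and the Msi2 call was kept only without Msi2 knockdown replicate 2 and was lost with the length correction (0.16, adjusted p = 0.054). SUV420H1, which builds on that mark, was called lower in Msi1 knockdown cells (-0.18 ± 0.06), though not without control replicate 1 or 3 or Msi1 knockdown replicate 2 or 3, nor with the length correction (-0.17) or the trend covariate (-0.13). At equal depth this change was -0.14 and was not called (edgeR adjusted p = 0.37). SUV420H2 was not called. With the replicate block both were called higher in Msi2 knockdown cells (0.13 and 0.27, edgeR adjusted p = 0.047 and 0.029).

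SMYD2, which methylates p53 and HSP90 as well as histones, fell in Msi1 knockdown cells. It stood at 22.5, 22.3 and 23.5 CPM in Msi1 knockdown cells, 35.6, 33.3 and 37.3 CPM in Msi2 knockdown cells and 30.8, 28.8 and 28.9 CPM in double-knockdown cells, against 35.2, 31.8 and 34.4 CPM in control. The Msi1 libraries lay below all others, the Msi2 libraries overlapped control, and the double-knockdown libraries lay between. Log2 changes against control were -0.57 ± 0.07, 0.07 ± 0.07 and -0.19 ± 0.07 (edgeR adjusted p = 2e-06, 0.48 and 0.021). The last call was lost without control replicate 1 or double-knockdown replicate 2 or 3, and with the length correction (-0.11, adjusted p = 0.24), whereas the trend covariate gave -0.30 (adjusted p = 0.0021). SMYD3 fell in Msi1 knockdown cells (-0.37 ± 0.09, or -0.24 with the trend covariate), and SMYD5 rose in Msi2 knockdown cells (0.25 ± 0.07, lost without control replicate 3 or Msi2 knockdown replicate 1) and the double knockdown (0.47 ± 0.07).

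SETD3, the actin histidine methyltransferase, was the gene called in every knockdown with both signs. It stood at 64.5, 56.6 and 59.1 CPM in Msi1 knockdown cells, 87.1, 80.2 and 94.5 CPM in Msi2 knockdown cells and 94.8, 94 and 93.3 CPM in double-knockdown cells, against 78.7, 72.5 and 78.0 CPM in control. The Msi1 libraries lay below control and those of the other knockdowns above it. Log2 changes were -0.35 ± 0.07, 0.19 ± 0.07 and 0.30 ± 0.07, with edgeR adjusted p of 0.00048, 0.036 and 0.001. The Msi2 call was kept only without Msi2 knockdown replicate 2 and was lost with the length correction (0.19, adjusted p = 0.065). With the trend covariate the Msi1 change was -0.23, still called, and the double-knockdown call was lost (0.12, adjusted p = 0.12). SETD4 fell in double-knockdown cells (-0.45 ± 0.09, or -0.23 with the trend covariate), and SETD5, a protein of chromatin complexes, rose in Msi1 knockdown cells (0.26 ± 0.07, or 0.14 with the trend covariate) and the Msi2 knockdown (0.30 ± 0.07).

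Among the PRDM genes, PRDM11 fell in Msi1 knockdown cells (-0.49 ± 0.09) and the double knockdown (-0.25 ± 0.09, lost without control replicate 1 or 3 or double-knockdown replicate 2, with the length correction at -0.04 and with the trend covariate at -0.23). At equal depth its Msi1 change was -0.44 and was not called (edgeR adjusted p = 0.07). PRDM4, which recruits an arginine methyltransferase, rose in Msi2 knockdown cells (0.21 ± 0.06, lost without control replicate 2 or Msi2 knockdown replicate 1) and the double knockdown (0.37 ± 0.06). PRDM6 had the largest fall of the set, -0.97 ± 0.29 in double-knockdown cells (edgeR adjusted p = 0.0086), at a control level of 0.70 ± 0.22 CPM, and this call was lost without control replicate 2 and with the trend covariate (-0.58, adjusted p = 0.28).

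**Figure D4:**
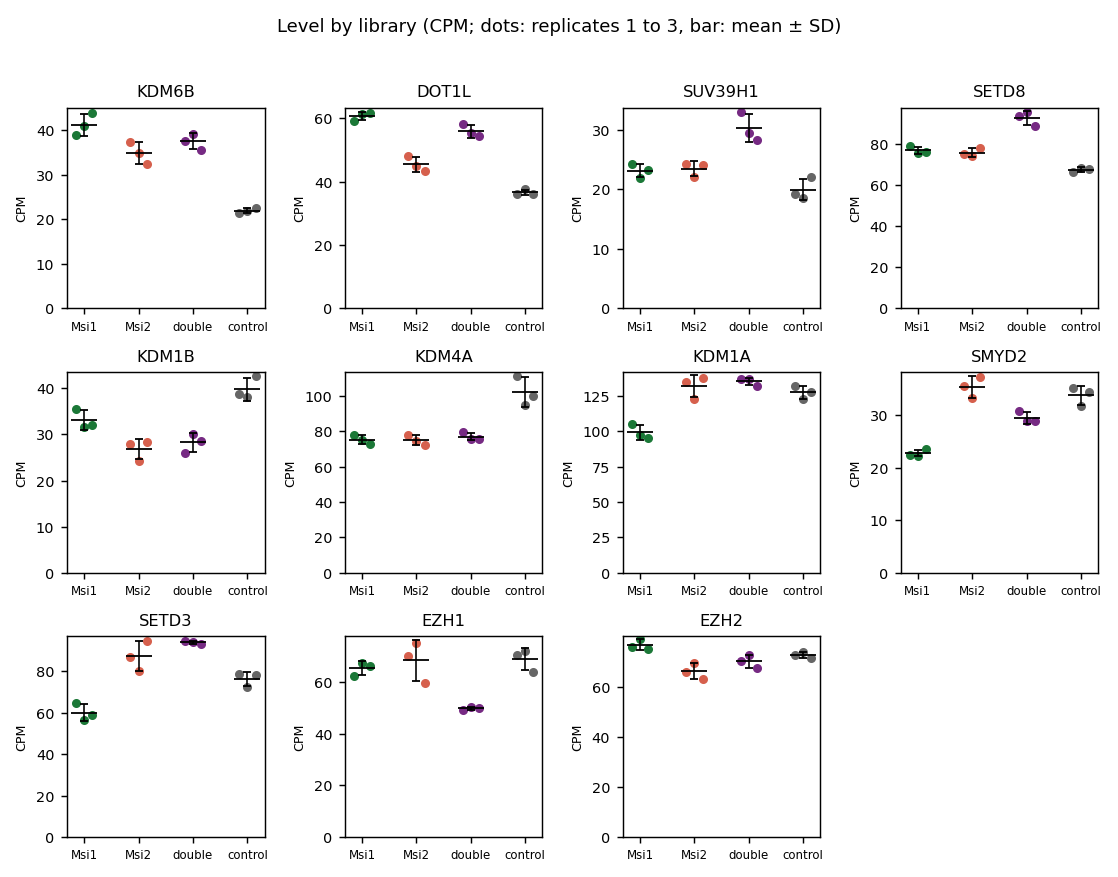
Level (CPM) in every library of 11 enzyme genes, with dots for replicates 1 to 3 of the Msi1, Msi2 and double knockdown and control, and bars for the mean ± SD. KDM6B, DOT1L and SETD8 lie above control in all knockdown libraries and KDM1B and KDM4A below it; KDM1A and SMYD2 are lowest in Msi1 knockdown cells, and EZH1 in double-knockdown cells.

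Both LSD demethylases were lower in Msi1 knockdown cells, and only KDM1B was lower in the others. KDM1A stood at 105, 97.2 and 95.2 CPM in Msi1 knockdown cells, 135, 123 and 137 CPM in Msi2 knockdown cells and 137, 137 and 132 CPM in double-knockdown cells, against 132, 123 and 128 CPM in control. The Msi1 libraries lay below all others. Log2 changes were -0.36 ± 0.06, 0.05 ± 0.06 and 0.09 ± 0.06, with edgeR adjusted p of 0.00012, 0.62 and 0.25. The Msi2 and double knockdown exceeded the Msi1 knockdown by 0.41 ± 0.06 and 0.45 ± 0.06 (adjusted p = 2.6e-05 and 1.4e-05), the second of which was no longer called with the library trend as covariate (0.22, edgeR adjusted p = 0.096).

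KDM1B (LSD2), the second flavin-dependent H3K4 demethylase, which acts within gene bodies, stood at 35.5, 31.6 and 32.1 CPM in Msi1 knockdown cells, 27.9, 24.3 and 28.3 CPM in Msi2 knockdown cells and 26.1, 30.2 and 28.5 CPM in double-knockdown cells, against 38.7, 38.1 and 42.6 CPM in control. All knockdown libraries lay below control. Log2 changes were -0.26 ± 0.08, -0.56 ± 0.08 and -0.49 ± 0.08, with edgeR adjusted p of 0.013, 2.2e-05 and 4e-05. The Msi1 call was lost without control replicate 3 or Msi1 knockdown replicate 2 or 3, and with the library trend as covariate (-0.15, adjusted p = 0.071). It was also lost at equal depth (-0.22, edgeR adjusted p = 0.22). The Msi2 knockdown was lower than the Msi1 knockdown by -0.30 ± 0.08 on the log2 scale (edgeR adjusted p = 0.0036).

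KDM6B (JMJD3), the inducible H3K27 demethylase, had the largest rise of the 60 in each knockdown. It stood at 39.0, 40.9 and 43.9 CPM in Msi1 knockdown cells, 37.3, 35.0 and 32.4 CPM in Msi2 knockdown cells and 37.7, 39.3 and 35.7 CPM in double-knockdown cells, against 21.5, 21.8 and 22.6 CPM in control. No knockdown library came within the range of control. Log2 changes were 0.91 ± 0.07, 0.67 ± 0.07 and 0.78 ± 0.07, with edgeR adjusted p of 9.6e-09, 1.1e-06 and 6.6e-08. These calls were kept in every fit with a library left out, with the length correction (0.92, 0.67 and 0.92), with the library trend as covariate (0.87, 0.66 and 0.86) and at equal depth (0.90, 0.68 and 0.85).

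KDM4A, which removes H3K9 and H3K36 trimethylation, fell in all 3 knockdowns. It stood at 77.6, 75.3 and 72.9 CPM in Msi1 knockdown cells, 78.0, 74.3 and 72.3 CPM in Msi2 knockdown cells and 79.3, 75.6 and 75.8 CPM in double-knockdown cells, against 111, 94.7 and 99.9 CPM in control. Its means were 75.2 ± 2.3 CPM in Msi1 knockdown cells, 74.9 ± 2.9 CPM in Msi2 knockdown cells and 76.9 ± 2.1 CPM in double-knockdown cells, against 102 ± 8.6 CPM in control, with no overlap. Log2 changes were -0.44 ± 0.06, -0.45 ± 0.06 and -0.41 ± 0.06, with edgeR adjusted p of 2e-05, 2.8e-05 and 3e-05, and the differences between knockdowns were -0.01 to 0.04, each ± 0.06. KDM4C fell in double-knockdown cells (-0.45 ± 0.07, or -0.30 with the trend covariate) and the Msi1 knockdown (-0.22 ± 0.07, kept only without control replicate 3 or Msi1 knockdown replicate 2), and the replicate block called its Msi2 change (-0.16, edgeR adjusted p = 0.028). At equal depth its Msi1 change was -0.21 and was not called (edgeR adjusted p = 0.25). KDM4B rose in Msi2 knockdown cells (0.31 ± 0.06) and in double-knockdown cells (0.15 ± 0.06), where the call was lost whichever of the 6 libraries was left out and with the trend covariate (0.12), and the length correction gave 0.27.

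Other JmjC demethylases, picked here after their values were seen, were lower in Msi1 knockdown cells than in Msi2 knockdown cells, as WHSC1L1 was. KDM3A and KDM3B remove H3K9 mono- and dimethylation, KDM5B removes H3K4 trimethylation, and KDM7A removes H3K9 and H3K27 dimethylation. KDM3B stood at 129, 130 and 136 CPM in Msi1 knockdown cells, 182, 174 and 168 CPM in Msi2 knockdown cells and 133, 134 and 133 CPM in double-knockdown cells, against 174, 167 and 166 CPM in control. The Msi1 and double-knockdown libraries lay below the others, and the Msi2 libraries overlapped control. Changes against control after Msi1, Msi2 and double knockdown were -0.36, 0.04 and -0.34 for KDM3B, -0.43, 0.00 and -0.30 for KDM3A, and -0.37, -0.04 and -0.36 for KDM5B, where each value from the Msi1 and double knockdown was called and none from the Msi2 knockdown. KDM7A had changes of -0.35, 0.28 and -0.18, of which the first and second were called, the second not without control replicate 1 or Msi2 knockdown replicate 1. At equal depth the first was -0.19 and was not called (edgeR adjusted p = 0.37). KDM5A and KDM5C, of the KDM5B family, were called in double-knockdown cells (-0.36 and -0.22, each ± 0.06) and in neither single knockdown. With the trend covariate both were called in Msi1 knockdown cells (-0.19 and -0.21, edgeR adjusted p = 0.0033 and 0.0015), and with the replicate block KDM5C was called higher in Msi2 knockdown cells (0.14, adjusted p = 0.015). The length correction ended the double-knockdown calls of KDM3A and KDM5C (-0.13 and -0.09) and left those of KDM3B, KDM5A and KDM5B at -0.20, -0.17 and -0.16, still called. The trend covariate also ended that of KDM5C (-0.12).

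The single knockdowns were also compared with each other. In Msi2 knockdown cells against Msi1 knockdown cells 18 of the 60 were higher and 7 lower, against 22.3% and 18.9% of all genes, and 41.1% of all genes were called in either direction. JmjC demethylases made up 8 of the 18, with a median difference of 0.26 over the 14 tested and -0.00 over all genes. The largest by size above 5 CPM were SMYD2 (0.64 ± 0.07, edgeR adjusted p = 3e-07), KDM7A (0.63 ± 0.08, adjusted p = 4.9e-06), SETD3 (0.54 ± 0.07, adjusted p = 3.1e-06) and WHSC1L1 (0.51 ± 0.06, adjusted p = 3.5e-06). DOT1L was lowest, at -0.42. At equal depth 13 calls were made, against 25 at full depth, and 22.0% of all genes were called there.

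Between the double and the Msi1 knockdown 15 were higher and 15 lower, against 29.9% and 26.2% of all genes, and 56.0% were called in either direction. Between the double and the Msi2 knockdown 8 were higher and 23 lower, against 22.7% and 22.5%, and 45.2% in either direction. Of the 8 genes grouped as H3K4 writers, 5 were lower in double-knockdown cells than in Msi1 knockdown cells and 6 than in Msi2 knockdown cells, with medians of -0.28 and -0.30. KMT2A differed by -0.73 ± 0.14 and -0.65 ± 0.14 (edgeR adjusted p = 0.0009 and 0.0025), KMT2D by -0.53 ± 0.11 and -0.36 ± 0.11 (adjusted p = 0.00067 and 0.012, the second lost without double-knockdown replicate 1 or Msi2 knockdown replicate 2) and KMT2C by -0.50 ± 0.09 and -0.42 ± 0.09 (adjusted p = 0.00023 and 0.0014). With the library trend as covariate 2 of the 60 differed between the double and the Msi1 knockdown and 12 between the double and the Msi2 knockdown, against 4.78% and 18.0% of all genes. In that fit KMT2A and KMT2D stood at 0.04 each against the Msi1 knockdown, with no call. The length correction left KMT2A, KMT2D and KMT2C at -0.42, -0.19 and -0.19 against the Msi1 knockdown, all called, and at -0.37, -0.06 and -0.13 against the Msi2 knockdown, of which KMT2A alone was called. The score separates the double knockdown from the other groups without overlap, so group and trend cannot be told apart in these comparisons.

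The double-knockdown change was also set against both single changes added together. This difference is named departure from additivity here. Of the 60 enzymes 8 were called above 0, 14 were called below 0 and 38 were not called. Over all genes 21.3% and 19.1% were called, and 40.3% in either direction. Without Msi1 knockdown replicate 2 the number called was 14, against 22 with it. KMT2A departed by -1.07 ± 0.20 (edgeR adjusted p = 0.0015), KMT2D by -1.03 ± 0.15 (adjusted p = 0.00017), KDM6B by -0.81 ± 0.10 (adjusted p = 1.3e-05), KMT2C by -0.65 ± 0.13 (adjusted p = 0.0011) and SETD5 by -0.56 ± 0.10 (adjusted p = 0.00038). The opposite sign was seen for KDM4A at 0.48 ± 0.09 (adjusted p = 0.00056), SETD3 at 0.45 ± 0.10 (adjusted p = 0.0013) and KDM1A at 0.40 ± 0.09 (adjusted p = 0.0016). For KDM6B and KDM4A the double-knockdown level lay close to that of each single knockdown, so their changes did not add up. Every change here is taken against the same control libraries. A shift of those libraries alone would therefore give a departure of opposite sign to a change shared by all knockdowns. Such a shift was not tested, and it cannot be told apart from non-additivity here. With the library trend as covariate KDM6B was the 1 gene of the 60 that kept its call (-0.67, adjusted p = 0.0015), where 3.94% of all genes were called, and KMT2A and KMT2D stood at -0.21 and -0.38 (adjusted p = 0.32 and 0.073).

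**Figure D5:**
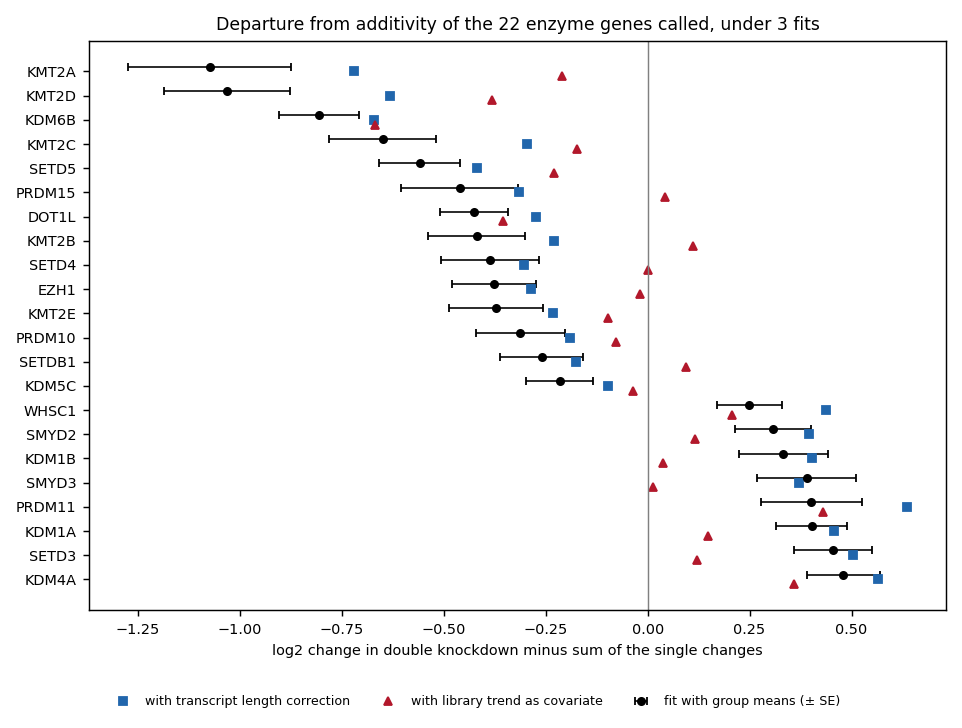
Departure from additivity (double-knockdown log2 change less the 2 single changes added together) of the 22 enzyme genes called, from the fit with group means (black, ± SE), with transcript length correction (blue squares) and with the library trend as covariate (red triangles). KMT2A, KMT2D and KMT2C move from -1.07, -1.03 and -0.65 toward 0 with both corrections, whereas KDM6B stays between -0.81 and -0.67.

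Partner subunits were counted from lists. Over all genes the shares higher and lower were 18.5% and 20.9% in Msi1 knockdown cells and 16.7% and 13.6% in Msi2 knockdown cells. In double-knockdown cells they were 26.6% and 25.3%. Values of list genes are from the fit with group means only. They were not followed with the length correction, with the trend covariate or with libraries left out, so their calls are less checked than those of the enzymes. Of 14 COMPASS subunits and cofactors, which activate the KMT2 and SETD1 enzymes, 1 was higher and 6 lower in Msi1 knockdown cells, 1 and 5 in Msi2 knockdown cells and 4 and 3 in double-knockdown cells. WDR82, the SETD1 partner that binds RNA polymerase II, fell in Msi2 knockdown cells to 95.2 ± 6.3 CPM, against 127 ± 7.5 CPM in control (log2 -0.42 ± 0.07, edgeR adjusted p = 7.6e-05). HCFC2, a relative of the cofactor HCFC1, fell in double-knockdown cells to 5.61 ± 0.33 CPM, against 10.1 ± 0.51 CPM in control (-0.84 ± 0.10, edgeR adjusted p = 1.8e-06). DPY30, a core subunit, rose in double-knockdown cells to 68.5 ± 1.2 CPM, against 44.8 ± 2.9 CPM in control (0.62 ± 0.09, adjusted p = 1.4e-05), and WDR5, another, to 142 ± 4.1 CPM, against 110 ± 8.1 CPM (0.37 ± 0.07, adjusted p = 0.00013).

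Among 11 partners of Polycomb repressive complex 2, 2 were higher and 2 lower in Msi1 knockdown cells, 4 and 1 in Msi2 knockdown cells and 5 and 0 in double-knockdown cells. Over all genes the shares were 18.5% and 20.9%, 16.7% and 13.6%, and 26.6% and 25.3%. MTF2, a subunit that brings the complex to CpG islands, rose in all 3, with log2 changes of 0.30, 0.27 and 0.42, each ± 0.06 (edgeR adjusted p = 0.00049, 0.0017 and 9.3e-06). SUZ12, a core subunit, fell in Msi1 knockdown cells to 85.5 ± 3.6 CPM, against 111 ± 9.2 CPM in control (-0.38 ± 0.07, adjusted p = 0.00016).

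Of 12 LSD1 and CoREST partners, 0 were higher and 6 lower in Msi1 knockdown cells, 2 and 2 in Msi2 knockdown cells and 3 and 5 in double-knockdown cells. Here and for the next list, the shares of all genes were 18.5% and 20.9%, 16.7% and 13.6%, and 26.6% and 25.3%. In Msi1 knockdown cells, where KDM1A was low, the deacetylase HDAC2 stood at 139 ± 6.5 CPM, against 185 ± 9.4 CPM in control (-0.41 ± 0.07, edgeR adjusted p = 7e-05), and the scaffold RCOR1 at 92.8 ± 4.1 CPM, against 115 ± 9.8 CPM (-0.30 ± 0.07, adjusted p = 0.00095). The 10 readers and cofactors of H3K9 methylation had 0 higher and 6 lower in Msi1 knockdown cells, 0 and 2 in Msi2 knockdown cells and 4 and 3 in double-knockdown cells. ATF7IP, which stabilises SETDB1, fell in Msi1 knockdown cells and the double knockdown (-0.34 and -0.41, each ± 0.06, edgeR adjusted p = 0.00018 and 1.9e-05), and UHRF1, which links H3K9 methylation to DNA methylation, rose in double-knockdown cells (0.44 ± 0.06, adjusted p = 7.8e-06).

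Further lysine methylation enzymes, whose symbols lie outside the naming rule, gave 2 higher and 6 lower of 11 tested in Msi1 knockdown cells, 1 and 3 in Msi2 knockdown cells and 1 and 7 in double-knockdown cells. For these lists too, the shares of all genes were 18.5% and 20.9%, 16.7% and 13.6%, and 26.6% and 25.3%. The values are again from the fit with group means only. ASH1L, an H3K36 methyltransferase, stood at 81.0 ± 6.4 CPM in Msi1 knockdown cells and 67.9 ± 5.1 CPM in double-knockdown cells, against 111 ± 2.9 CPM in control (-0.46 and -0.71, each ± 0.08, edgeR adjusted p = 7.9e-05 and 3.8e-07). Of 9 arginine methyltransferase genes tested, 0 were higher and 1 lower in Msi1 knockdown cells, 4 and 0 in Msi2 knockdown cells and 6 and 2 in double-knockdown cells. CARM1, which methylates arginines of H3, rose in Msi2 knockdown cells and the double knockdown (0.37 and 0.51, each ± 0.06, edgeR adjusted p = 0.00024 and 3e-06). Among 13 genes of methyl donor and 2-oxoglutarate supply, 1 was higher and 5 lower in Msi1 knockdown cells, 1 and 2 in Msi2 knockdown cells and 3 and 2 in double-knockdown cells. IDH1, which makes 2-oxoglutarate, fell in Msi1 knockdown cells to 85.6 ± 6.1 CPM, against 117 ± 9.0 CPM in control (-0.45 ± 0.07, edgeR adjusted p = 4.2e-05).

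Because Musashi proteins bind UAG, the triplet was counted in the 3′UTR of the longest coding transcript of each gene (GENCODE 29, GRCh38). The 60 enzymes had a median of 10.66 UAG per kb, against 10.98 over all tested genes with a 3′UTR. The 17, 3 and 21 enzymes called lower had medians of 14.09, 14.51 and 12.58 UAG per kb after Msi1, Msi2 and double knockdown. Those called higher, 8, 12 and 10 in number, had medians of 9.14, 8.55 and 9.5, and those not called 10.42, 11.49 and 11.04. With 3 genes, the Msi2 median of those lower is the value of KDM1B itself. Over all genes the corresponding medians were 11.69, 11.98 and 11.75 for those lower and 10.47, 10.14 and 10.14 for those higher. The AU content of the 3′UTR moved with this, at 61.2% in enzymes lower and 50.2% in enzymes higher in Msi1 knockdown cells, and its part was not tested. No test was made of these medians.

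The 30-base window with the most UAG is shown for 2 writers that were higher and for KDM1B, which was lower in every knockdown, with TAG, the DNA letters of UAG, in capitals. The windows lie at chr19:2229958-2229987 (plus strand) for DOT1L, chrX:48708410-48708439 (plus) for SUV39H1 and chr6:18222179-18222208 (plus) for KDM1B, all in the 3′UTR on GRCh38.
DOT1L: tggtccagtttgtactgtcgaTAGtttTAG
SUV39H1: agatcTAGaTAGtccgTAGaTAGcactTAG
KDM1B: agcactTAGatttaattgcattttccaTAG

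UAG density is given here for enzymes called in each direction. SUV39H1, which was higher, had 5 UAG within the window and 16 in 1440 bases, or 11.11 per kb. KDM1B, which was lower, had 27 in 1861 bases, or 14.51 per kb. DOT1L had 18 in 2786 bases, or 6.46 per kb, and KDM6B, the gene with the largest rises, 4.71 per kb. Other enzymes went the other way. KDM4A, also lower in every knockdown, had 8.73 per kb, and SMYD2, lower in Msi1 knockdown cells, 5.76 per kb. SETD8, also higher in every knockdown, had 10.88 per kb, where the median of the enzymes was 10.66.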

How the data were processed

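RNA was measured in 12 libraries, grouped by sample title. Values as deposited are estimated counts per gene, whole numbers that the authors did not scale between libraries. The submitters' processing notes list Kallisto 0.42.1, CASAVA 1.4 and hg19 but give no role for them, and whether strand was kept is not stated there. Kallisto divides reads shared by similar transcripts by likelihood, so near-identical genes are uncertain. No column was left unmapped and no entry lacked a gene name.

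Genes were tested in R 4.3.3 with edgeR 4.0.16 (robust quasi-likelihood fit, TMM factors, filterByExpr with a minimum count of 10). One model held all 12 libraries and the 4 group means (8 residual degrees of freedom), and two-sided p-values were adjusted by Benjamini-Hochberg over 15021 genes at a threshold of 0.05. Standard errors were taken from each log2 change and its F statistic. With 3 libraries in each group the smallest p of an exact permutation test is 0.1. There were 7 comparisons. Replicate pairs differed beyond counting error (chi-square per degree of freedom 3.65 to 33.74). The fit was tested on simulated counts.

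The enzymes and lists were chosen with earlier results of these data known. Values in every library are given for enzymes called against control with a log2 change of at least 0.5 in size, a mean of 5 CPM or more in the higher of the groups and no overlap, and always for EZH2, EZH1, KDM1A, DOT1L, SETD2, KMT2A and KMT2D; SETD8, SETD3, KDM4A and KDM3B were added after their values were seen. From each list, genes named are among the 3 with the smallest p in a comparison; 114 of 115 list entries matched the table. Alternatives were RLE and upper-quartile factors, DESeq2 1.42.0, no filter or a minimum count of 50, and the compared groups alone. Others were libraries thinned to the smallest total, each library left out, a replicate block and the library trend as covariate. The last was a loess offset on the longest GENCODE 29 transcript, known for 99.3% of the genes. Gene weights for the trend came from the first component of deviations from group means, over genes above 3 log2 CPM. Library scores were those weights applied to deviations from the mean of all 12 libraries, so they hold differences between groups too. The covariate can therefore take up part of a knockdown change. Same-numbered Msi2 knockdown and control libraries deviated together (correlations 0.184, 0.683 and 0.412), so the block for this pair, in a model of these groups alone, is given where it changes a call of theirs; it was added after seeing the data. Promoters come from RefSeq on GRCh38.p14, with 54 of 60 enzymes matched. The values of 1 tested enzyme gene, which is included in the counts, are not reported here.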

Additional observations from a re-analysis of the deposited data

Results flagged for a closer look

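Among the 12 enzymes named by rule or always given, 4 values were called with a log2 size of at least 0.5 in 2 tests. The tests were Msi2 against Msi1 knockdown and departure from additivity. Enzymes outside the 12, such as KDM7A, SETD3, KMT2C and SETD5, also passed these limits in 1 of them. KMT2A and KMT2D departed from additivity by -1.07 ± 0.20 and -1.03 ± 0.15 on the log2 scale (edgeR adjusted p = 0.0015 and 0.00017): KMT2D was called higher in both single knockdowns and KMT2A after Msi1 knockdown, and neither was called against control in double-knockdown cells. Library trend scores move with these values, as given above, and the part of the trend was not tested beyond the fit with it as a covariate, in which neither departure was called. KDM6B departed by -0.81 ± 0.10 (adjusted p = 1.3e-05), with levels of 41.3 ± 2.5, 34.9 ± 2.5 and 37.5 ± 1.8 CPM after Msi1, Msi2 and double knockdown, against 21.97 ± 0.61 CPM in control. A shift of the control libraries alone would also give such a departure, and this was not tested. SMYD2 was higher in Msi2 knockdown cells than in Msi1 knockdown cells by 0.64 ± 0.07 (adjusted p = 3e-07), in each of the 3 libraries against each of the 3.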

How the results depend on the processing

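Counts of enzymes called moved by more than 1.5 times under these alternatives. Libraries thinned to equal depth gave 11 lower in Msi1 knockdown cells and 4 higher in Msi2 knockdown cells. They gave 13, 18 and 17 called for Msi2 against Msi1, double against Msi1 and double against Msi2 knockdown, with 12 departures from additivity. Fewer calls were made at the smallest library's depth. Over all genes 22.0% were called there for Msi2 against Msi1, against 41.1% at full depth. The other shares of all genes at that depth are not given. The library trend as covariate gave 19 higher and 7 lower in Msi2 knockdown cells. Over all genes 6391 were called there, against 4545 without it. It gave 2 called for double against Msi1, 12 for double against Msi2 and 1 departure. All genes called for departure went to 592, against 6058 without it. For double against Msi1 they went to 718, against 8419, and for double against Msi2 to 2697, against 6792. In that fit KMT2A reversed to 0.14 in Msi2 against Msi1 knockdown (edgeR adjusted p = 0.021) and 0.036 in double against Msi1 (0.89), and KMT2D to 0.042 in double against Msi1 (0.89) and 0.057 in double against Msi2 (0.69). The length correction gave 17 higher and 12 lower in double-knockdown cells, against 29.7% and 20.9% of all genes. It gave 20 called for double against Msi2, where 6468 of all genes were called, against 6792 without it. The share of higher calls over all genes rose to 63.37% from 53.28% for double against Msi1. For departure it rose to 62.49% from 52.69%, and it was 30.91% with the trend. The cause of these shifts was not tested.

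Leaving out single libraries gave 5 to 10 higher and 14 to 16 lower in Msi1 knockdown cells, 5 to 14 and 3 to 5 in Msi2 knockdown cells, 8 to 9 and 17 to 20 in double-knockdown cells, 22 to 27 for Msi2 against Msi1, 22 to 30 for double against Msi1, 21 to 33 for double against Msi2 and 14 to 25 departures. Higher calls in Msi1 knockdown cells fell to 5 without control replicate 1, and in Msi2 knockdown cells to 7 without control replicate 1 or 2 and 5 without Msi2 knockdown replicate 1. Shares of all genes are not given for the fits with a library left out, so these ranges have no background beside them. The replicate block in the Msi2 and control groups alone gave 22 higher and 7 lower, against 21.9% and 20.1% of all genes in that model. In other pairs of groups same-numbered libraries correlated between -0.538 and 0.695, and the labels do not say that equal numbers mark a shared batch. The block over all 12 libraries gave 11 higher and 17 lower, 15 and 3, and 10 and 22 after Msi1, Msi2 and double knockdown. Shares of all genes are not given for that block. For the 12 enzymes named by rule or always given, values were followed over all 7 comparisons and alternatives. In all, 1298 kept their side of the threshold, 76 lost and 38 gained the call, and 4 with a call in either fit reversed. A turn of sign where neither fit made a call is counted among the 1298.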

Other observations

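KDM6A and the genes next to it on the X chromosome had few counts in every library. On one side DUSP21 had 0 counts in all 12 libraries, FUNDC1 7 and EFHC2 2, against 17 for KDM6A, and on the other side CXorf36 ran from 0.11 to 0.60 CPM. Further out NDP ran from 2.21 to 5.64 CPM and MAOA from 13.96 to 27.83 CPM, with MAOB between them at most 0.10 CPM, and on the other side KRBOX4 ran from 22.23 to 30.44 CPM and ZNF674 from 10.42 to 14.78 CPM. These neighbours were looked at after the counts of KDM6A were seen, and their order was taken from RefSeq.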
